A study of Mus musculus with 8 samples.

Results

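The genes described here form 5 pairs of mouse X-Y paralogs: Ddx3y and Ddx3x, Kdm5d and Kdm5c, Usp9y and Usp9x, Eif2s3y and Eif2s3x, and Uty and Kdm6a. In each pair the first-named copy lies on the Y chromosome and its partner on the X. The members were the rows of the deposited count table whose Ensembl identifiers carry these 10 symbols. All 10 were found among the 56748 genes of the table, and all 10 passed the low-count filter.

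The study sequenced RNA of whole adult testis from mice of genotype Ssty2-/- (4 libraries) and from wild-type mice (4 libraries). Ssty2 belongs to a multi-copy family on the Y long arm and is expressed in spermatids, and the series asks how its loss changes testis expression. The labels name neither the strain, the exact age nor the way the allele was made. They also do not say that each library came from its own animal, so the p-values reflect only how these libraries vary, and part of that variation may be technical. Ssty2 had 0 counts in each of the 4 knockout libraries, against 56, 78, 83 and 45 counts in wild-type libraries 1 to 4. Total counts per library ran from 18036708 to 22639737 in the knockout and from 18763650 to 24415587 in wild type.

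The X and Y chromosomes descend from an ordinary pair of chromosomes, and a small set of genes has kept a copy on both. These survivors encode proteins that act in most cells. They include an RNA helicase (Ddx3), a histone H3 lysine demethylase that removes the lysine-4 mark (Kdm5) and a deubiquitinase (Usp9). The others are the gamma subunit of translation initiation factor eIF2 (Eif2s3) and a demethylase of the lysine-27 mark (Kdm6a, with its relative Uty). In male germ cells the X and the Y are silenced together during meiosis, and the mouse Y copies sit together on the short arm, away from the Ssty2 array on the long arm.

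Of the 10 genes, 8 fell in the knockout, none rose and 2 did not pass the test (edgeR's quasi-likelihood test, with p under 0.05 after Benjamini-Hochberg adjustment over 21952 tested genes). The genes that fell were 4 of the 5 Y copies, namely Ddx3y, Kdm5d, Usp9y and Uty, and 4 of the 5 X copies, namely Ddx3x, Kdm5c, Eif2s3x and Kdm6a. The Y copy Eif2s3y and the X copy Usp9x did not pass. Expression differed widely between the genotypes: 53.5% of all tested genes were called in either direction, 27.4% lower and 26.2% higher. The median log2 fold change, knockout over wild type, was -0.59 over the 10 genes, -0.59 over the 5 Y copies and -0.59 over the 5 X copies, beside -0.01 over all tested genes. The knockout and wild-type libraries did not overlap for 7 of the 10 genes, whereas 46.7% of all tested genes had groups apart in either direction and 24% had them apart with the knockout lower. Among tested X-linked genes 41.1% fell and 36.4% rose. Among the 97 tested Y-linked genes 76.3% fell and 17.5% rose, and 53 of the 97 had 0 counts in every knockout library.

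Library sizes were scaled with the trimmed mean of M values (TMM), and levels are given as counts normalised to that library size (CPM). In whole tissue, fewer cells of a type and less RNA per cell cannot be told apart. Markers of testicular cell types moved between the same libraries, and their part in the results on the 10 genes was not tested. Of 10 spermatogonial markers 7 fell and 1 rose, and their summed level was 129 to 136 CPM in the knockout and 200 to 225 CPM in wild type. Of 8 spermatocyte markers 5 fell, with sums of 1172 to 1310 CPM in the knockout and 1366 to 1583 CPM in wild type. All 8 round spermatid markers rose, with sums of 2777 to 2878 CPM in the knockout and 1745 to 1953 CPM in wild type. All 8 elongating spermatid markers rose as well. Every marker of these lists had enough counts to be tested in this tissue.

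**Figure D1:**
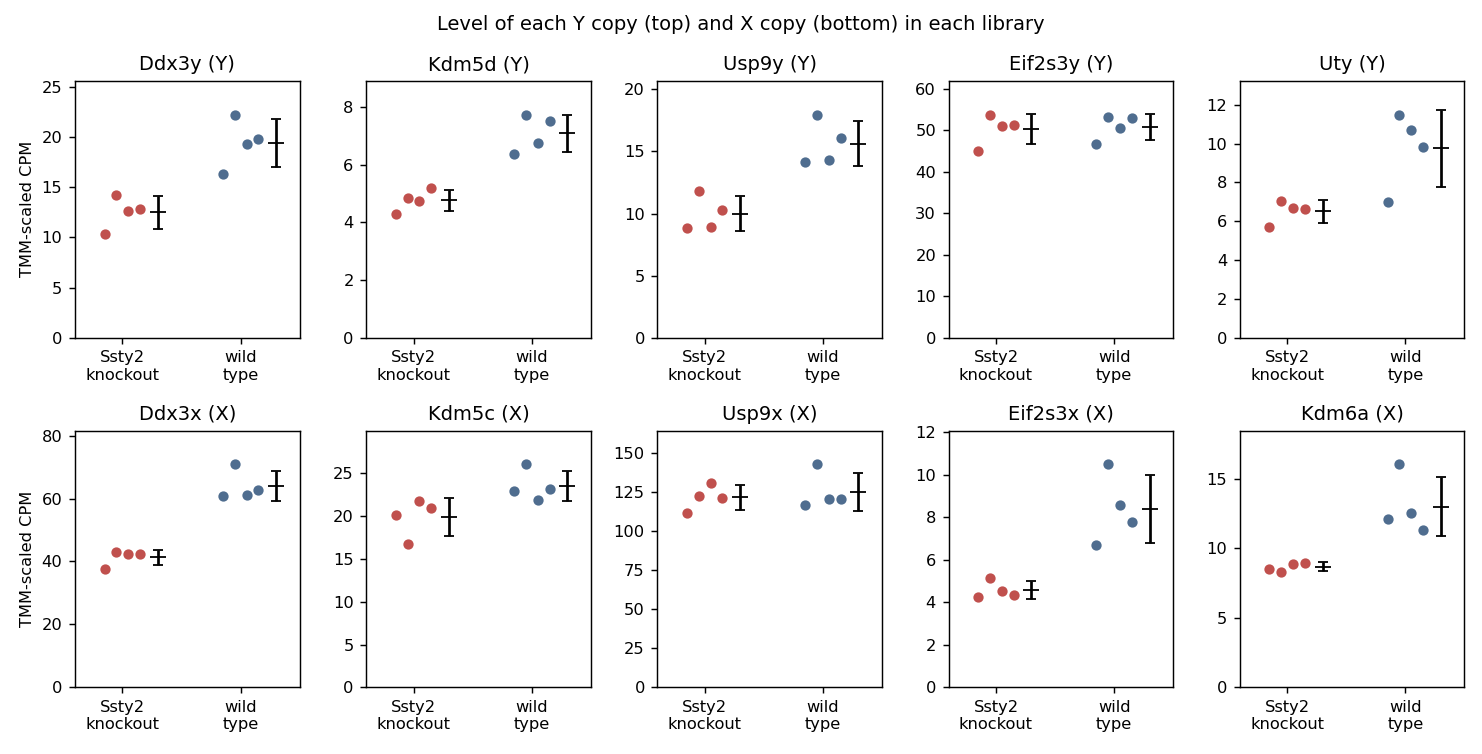
Level of each Y copy (top row) and each X copy (bottom row) in TMM-scaled CPM, with a linear axis from 0, in the 4 Ssty2 knockout libraries (red, left) and the 4 wild-type libraries (blue, right). Points are libraries 1 to 4 from left to right, and the bars are the mean and SD. The groups are apart in 7 panels, overlap by 1 library in Uty, overlap fully in Eif2s3y and overlap in part in Usp9x.

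Ddx3y and Ddx3x encode DEAD-box RNA helicases that unwind structured messenger RNA and take part in translation initiation. Ddx3y (ENSMUSG00000069045) measured 10.3, 14.2, 12.6 and 12.8 CPM in knockout libraries 1 to 4, against 16.4, 22.3, 19.3 and 19.8 CPM in wild-type libraries 1 to 4. Ddx3x (ENSMUSG00000000787) measured 37.7, 42.9, 42.3 and 42.3 CPM in the knockout, against 60.8, 70.9, 61.3 and 62.7 CPM in wild type. For both copies every knockout library lay below every wild-type library. Ddx3y fell to 64.3% of its wild-type mean (12.5 ± 1.62 CPM in the knockout and 19.4 ± 2.42 CPM in wild type; SD, n = 4 each; log2 fold change -0.64, SE 0.111, edgeR adjusted p = 0.000164). Ddx3x fell to 64.6% of its wild-type mean (41.3 ± 2.42 CPM in the knockout and 63.9 ± 4.72 CPM in wild type; log2 fold change -0.63, SE 0.0696, edgeR adjusted p = 1.95e-06). Both copies fell by nearly the same proportion. The share of the pair's counts that came from Ddx3y was 23.2% ± 1.40 in the knockout and 23.3% ± 1.38 in wild type. The log2 ratio of Y to X counts differed by -0.01 between knockout and wild type (95% interval -0.21 to 0.19, exact two-sided permutation test p = 0.943). Shifts of the ratio inside that interval remain possible.

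Uty and its X partner Kdm6a belong to the same protein family, and Kdm6a is a demethylase of histone H3 lysine 27. Uty (ENSMUSG00000068457) measured 5.69, 7.04, 6.67 and 6.64 CPM in knockout libraries 1 to 4, against 6.9998, 11.5, 10.7 and 9.81 CPM in wild-type libraries 1 to 4. Kdm6a (ENSMUSG00000037369) measured 8.54, 8.31, 8.90 and 8.96 CPM in the knockout, against 12.1, 16.1, 12.5 and 11.3 CPM in wild type. Kdm6a did not overlap between the genotypes, while for Uty wild-type library 1 fell just under knockout library 2. Uty fell to 66.7% of its wild-type mean (6.51 ± 0.577 CPM in the knockout and 9.76 ± 1.96 CPM in wild type; log2 fold change -0.59, SE 0.144, edgeR adjusted p = 0.00269). Kdm6a also fell to 66.7% (8.68 ± 0.309 CPM in the knockout and 13.0 ± 2.09 CPM in wild type; log2 fold change -0.59, SE 0.115, edgeR adjusted p = 0.000473). Uty supplied 42.8% ± 2.40 of the pair's counts in the knockout and 42.7% ± 4.62 in wild type, and the log2 ratio differed by 0.01 (95% interval -0.37 to 0.39; exact permutation test p = 0.943). This interval is the widest of the 5 pairs.

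The sequences upstream of Uty and Kdm6a are shown because these copies fell by the same proportion. RefSeq's 250 bases before each gene's start (GRCm38.p6) had 7 CpG dinucleotides for Uty (chrY:1245760-1246009, minus strand) and 15 for Kdm6a (chrX:18162325-18162574, plus strand), beside a median of 6 over 32851 mouse promoters. Capitals mark every stretch of at least 10 bases that occurs on the same strand of both sequences.
Uty: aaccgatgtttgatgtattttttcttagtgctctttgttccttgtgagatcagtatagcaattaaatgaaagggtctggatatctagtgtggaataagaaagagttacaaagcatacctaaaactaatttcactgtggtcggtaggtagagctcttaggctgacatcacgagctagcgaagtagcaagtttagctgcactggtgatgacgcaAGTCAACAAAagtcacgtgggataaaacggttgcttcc
Kdm6a: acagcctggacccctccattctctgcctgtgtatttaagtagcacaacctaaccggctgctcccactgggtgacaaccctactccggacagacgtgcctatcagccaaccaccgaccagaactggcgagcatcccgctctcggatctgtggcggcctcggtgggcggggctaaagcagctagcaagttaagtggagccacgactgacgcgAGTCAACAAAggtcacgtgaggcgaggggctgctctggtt
The shared stretch begins 38 bases before the start of Uty and 40 bases before the start of Kdm6a. A match of letters is a description and not a binding site. Ddx3y and Ddx3x also fell by nearly the same proportion, and the longest stretch shared by their promoters was 7 bases. How often other promoters share a stretch of this length was not tested.

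Eif2s3y and Eif2s3x encode the subunit of eIF2 that binds guanine nucleotide and helps bring the initiator methionine tRNA to the ribosome, and the Y copy is needed for spermatogonia to proliferate in the mouse. Eif2s3y (ENSMUSG00000069049) measured 45.1, 53.9, 51.0 and 51.4 CPM in knockout libraries 1 to 4, against 46.6, 53.2, 50.6 and 52.9 CPM in wild-type libraries 1 to 4. The groups covered the same range, with 50.3 ± 3.69 CPM in the knockout and 50.8 ± 3.03 CPM in wild type (log2 fold change -0.01, 95% interval -0.16 to 0.13, edgeR adjusted p = 0.883). Eif2s3x (ENSMUSG00000035150) measured 4.24, 5.16, 4.54 and 4.37 CPM in the knockout, against 6.69, 10.5, 8.57 and 7.79 CPM in wild type. Every knockout library lay below every wild-type library. Eif2s3x fell to 54.6% of its wild-type mean, the strongest decrease among the 10 genes (4.58 ± 0.410 CPM in the knockout and 8.39 ± 1.60 CPM in wild type; log2 fold change -0.87, SE 0.146, edgeR adjusted p = 0.000113). Its raw counts were 79, 110, 96 and 75 in the knockout and 130, 240, 220 and 162 in wild type.

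Within a library the Y copy outnumbered the X copy. There were 10.6, 10.4, 11.2 and 11.8 Eif2s3y counts for each Eif2s3x count in knockout libraries 1 to 4, against 6.97, 5.07, 5.90 and 6.79 in wild-type libraries 1 to 4. All 4 knockout ratios exceeded the highest wild-type ratio, and its mean log2 value was 0.84 higher (SE 0.113, 95% interval 0.57 to 1.12). The exact two-sided permutation test gave p = 0.0286, the smallest value that 4 libraries against 4 allow, and 0.0714 after adjustment over the 5 pairs. Eif2s3y made up 91.7% ± 0.415 of the pair's counts in the knockout and 85.9% ± 1.81 in wild type. When the 5 log2 ratios were fitted by limma together with all tested genes, a fit chosen after the data were seen, the change of this ratio had an adjusted p of 0.000733.

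The promoters of this pair are shown because the Y and the X copy differed most in their change. The 250 bases before Eif2s3y (chrY:1010345-1010594, plus strand) had 10 CpG dinucleotides, and those before Eif2s3x (chrX:94212652-94212901, minus strand) had 19. Capitals again mark stretches of at least 10 bases found in both.
Eif2s3y: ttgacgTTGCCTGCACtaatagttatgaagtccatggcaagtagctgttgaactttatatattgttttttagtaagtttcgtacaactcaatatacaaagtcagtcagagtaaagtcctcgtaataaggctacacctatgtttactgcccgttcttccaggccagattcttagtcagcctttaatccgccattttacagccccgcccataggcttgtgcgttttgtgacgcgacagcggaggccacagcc
Eif2s3x: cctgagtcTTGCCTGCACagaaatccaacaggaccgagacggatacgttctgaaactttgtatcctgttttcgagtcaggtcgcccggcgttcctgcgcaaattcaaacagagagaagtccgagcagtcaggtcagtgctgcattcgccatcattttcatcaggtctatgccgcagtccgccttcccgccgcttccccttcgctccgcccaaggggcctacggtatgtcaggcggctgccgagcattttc
The shared stretch begins 244 bases before the start of Eif2s3y and 242 bases before the start of Eif2s3x. Both sequences hold a GC box (GGGCGG on either strand), as do those of Ddx3x and Kdm6a and 32.7% of all promoters of this length. A CCAAT box (CCAAT on either strand) occurred upstream of Usp9y and Kdm5c and in 33.9% of promoters. The ETS core CCGGAA, on either strand, occurred upstream of Usp9y alone among the 9 members with a sequence and in 12.0% of promoters, and the cyclic AMP element TGACGTCA in none of the 9 and in 1.55% of promoters. The promoter of Usp9x was not analysed here.

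Usp9y and Usp9x encode large deubiquitinases, which remove ubiquitin from proteins. Usp9y (ENSMUSG00000069044) measured 8.86, 11.8, 8.90 and 10.3 CPM in knockout libraries 1 to 4, against 14.2, 18.0, 14.3 and 16.1 CPM in wild-type libraries 1 to 4. No knockout library reached the lowest wild-type library. Usp9y fell to 63.8% of its wild-type mean (9.97 ± 1.41 CPM in the knockout and 15.6 ± 1.79 CPM in wild type; log2 fold change -0.65, SE 0.115, edgeR adjusted p = 0.000201). Usp9x (ENSMUSG00000031010), the member with the most counts, measured 112, 123, 131 and 121 CPM in the knockout, against 117, 143, 121 and 121 CPM in wild type. These groups overlapped, and the test did not call Usp9x (122 ± 7.76 CPM in the knockout and 125 ± 12.0 CPM in wild type; log2 fold change -0.04, 95% interval -0.19 to 0.10, edgeR adjusted p = 0.637). Usp9y supplied 7.57% ± 1.00 of the pair's counts in the knockout and 11.1% ± 0.492 in wild type. The log2 ratio of Y to X counts was lower in every knockout library than in the lowest of wild type, with a difference of -0.61 (SE 0.110, 95% interval -0.88 to -0.34; exact permutation test p = 0.0286, the smallest possible, and 0.0714 after adjustment over the 5 pairs). In the limma fit among all genes its adjusted p was 0.00252.

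Kdm5d and Kdm5c encode demethylases of histone H3 lysine 4. Kdm5d (ENSMUSG00000056673) measured 4.29, 4.84, 4.73 and 5.18 CPM in knockout libraries 1 to 4, against 6.38, 7.74, 6.74 and 7.50 CPM in wild-type libraries 1 to 4. Kdm5c (ENSMUSG00000025332) measured 20.1, 16.7, 21.7 and 21.0 CPM in the knockout, against 23.0, 26.0, 21.9 and 23.2 CPM in wild type. The Kdm5d groups were well apart, and the Kdm5c groups came close between knockout library 3 and wild-type library 3 without overlapping. Kdm5d fell to 67.1% of its wild-type mean (4.76 ± 0.365 CPM in the knockout and 7.09 ± 0.638 CPM in wild type; log2 fold change -0.58, SE 0.126, edgeR adjusted p = 0.0011). Kdm5c fell less, to 84.5% (19.9 ± 2.23 CPM in the knockout and 23.5 ± 1.77 CPM in wild type; log2 fold change -0.24, SE 0.0917, edgeR adjusted p = 0.0338). The call on Kdm5c was lost without knockout library 2 (edgeR adjusted p = 0.116), without wild-type library 2 (0.098) and without wild-type library 4 (0.0526). Kdm5d supplied 19.4% ± 2.26 of the pair's counts in the knockout and 23.2% ± 1.13 in wild type. The log2 ratio differed by -0.33 (SE 0.112, 95% interval -0.60 to -0.05), but knockout library 2 overlapped the wild-type range, and the exact permutation test gave p = 0.0571, or 0.0952 over the 5 pairs. The limma fit among all genes gave this ratio an adjusted p of 0.0373.

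**Figure D2:**
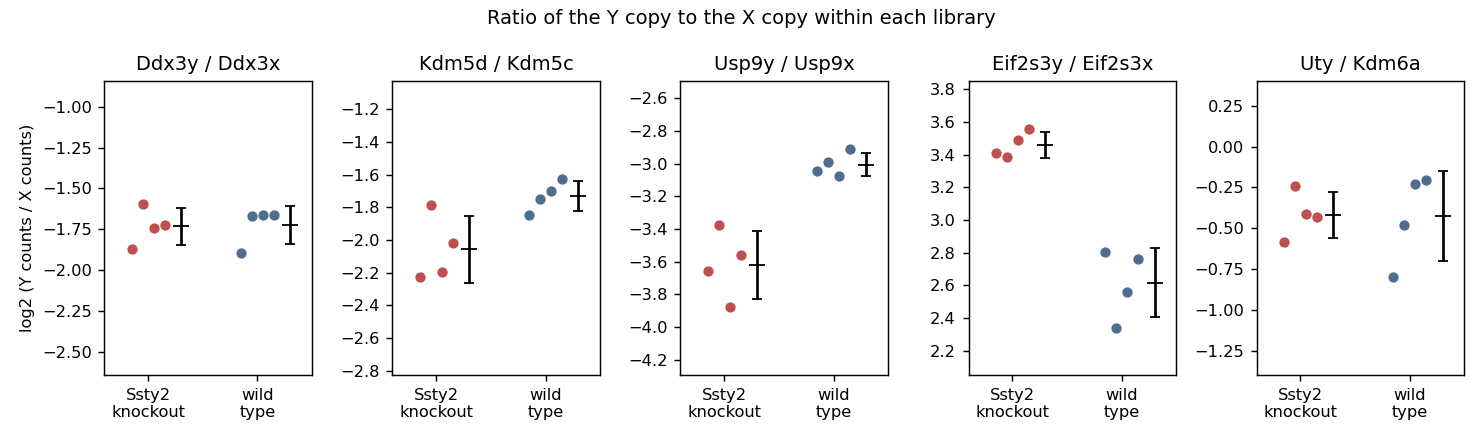
Log2 of Y counts over X counts within each library for the 5 pairs, Ssty2 knockout at left (red) and wild type at right (blue), with mean and SD bars and an axis of equal span in each panel. The ratio was higher in the knockout for Eif2s3 (3.46 and 2.62), lower for Usp9 (-3.62 and -3.01) with no overlap in either pair, and close to equal for Ddx3 (-1.73 and -1.72).

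The sum of both copies gives the level of each pair relative to the scaled library size, whichever copy a read was assigned to. The Ddx3 sum fell to 53.8 ± 3.99 CPM in the knockout, against 83.4 ± 6.89 CPM in wild type (log2 fold change -0.63, SE 0.0719, edgeR adjusted p = 2.7e-06). The sum of Uty and Kdm6a fell to 15.2 ± 0.651 CPM in the knockout, against 22.8 ± 3.61 CPM in wild type (log2 fold change -0.59, SE 0.103, edgeR adjusted p = 0.000173). The Kdm5 sum fell to 24.6 ± 2.27 CPM in the knockout, against 30.6 ± 2.28 CPM in wild type (log2 fold change -0.31, SE 0.0830, edgeR adjusted p = 0.0045). The other 2 sums, each made up mostly of the copy that did not pass, did not pass either with TMM scaling. With scaling to library totals both were called lower (Usp9 -0.24, edgeR adjusted p = 0.00901, and Eif2s3 -0.25, edgeR adjusted p = 0.00823). The values below are on the TMM scale. The Usp9 sum was 132 ± 8.03 CPM in the knockout and 141 ± 13.6 CPM in wild type (log2 fold change -0.10, 95% interval -0.24 to 0.05, edgeR adjusted p = 0.244). The Eif2s3 sum was 54.9 ± 4.02 CPM in the knockout and 59.2 ± 4.35 CPM in wild type (log2 fold change -0.11, 95% interval -0.26 to 0.04, edgeR adjusted p = 0.212). In both pairs the scarcer copy was the one that fell, the Y copy in Usp9 and the X copy in Eif2s3.

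**Figure D3:**
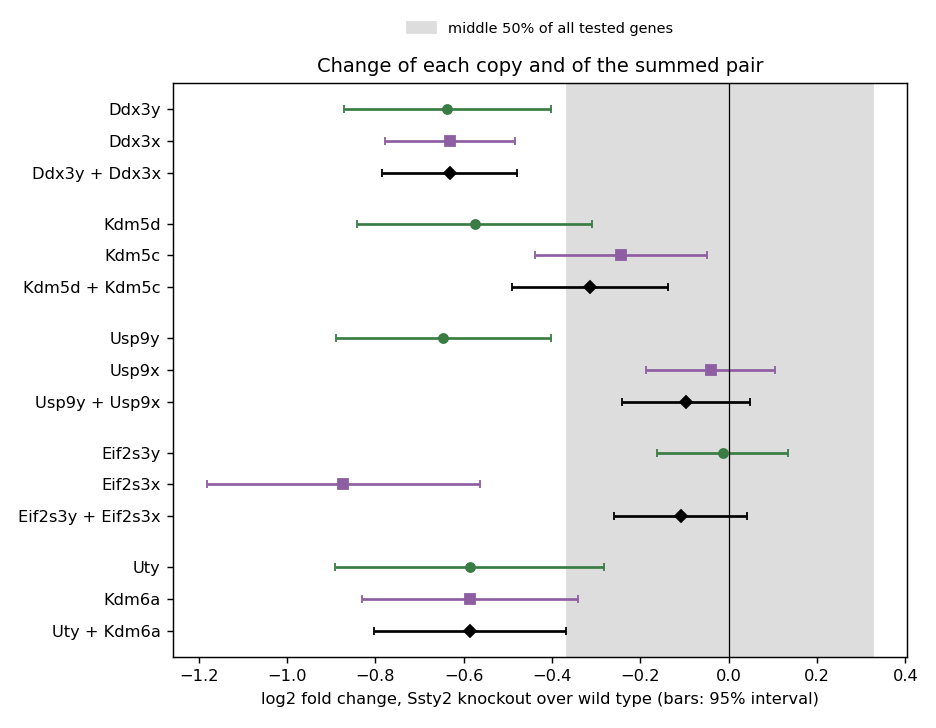
Log2 fold change, Ssty2 knockout over wild type, of each Y copy (green circles), X copy (purple squares) and summed pair (black diamonds), with 95% intervals. The grey band holds the middle 50% of all tested genes. The intervals of Usp9x, Eif2s3y and the sums of these 2 pairs include 0, and the interval of Eif2s3x lies lowest, at -1.18 to -0.56.

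Levels of different genes can be compared only per length, and the order below uses CPM per kilobase of annotated exon. In the knockout Eif2s3y was highest at 12.1 CPM per kilobase, followed by Usp9x at 8.09 and Ddx3x at 7.82, whose ranges overlapped. Kdm5c at 2.79 and Ddx3y at 2.40 overlapped, as did Usp9y at 1.23 and Eif2s3x at 1.20. Kdm6a at 1.04, Uty at 0.665 and Kdm5d at 0.314 CPM per kilobase were the lowest and were apart from each other. In wild type Eif2s3y at 12.2 and Ddx3x at 12.1 CPM per kilobase overlapped at the top, above Usp9x at 8.33. Ddx3y at 3.74 overlapped Kdm5c at 3.31, Eif2s3x at 2.20 overlapped Usp9y at 1.93, and Usp9y overlapped Kdm6a at 1.55. Uty at 0.996 and Kdm5d at 0.468 CPM per kilobase were again lowest. Eif2s3y was therefore the only Y copy above its X partner in either genotype. Exon lengths include retained introns: Kdm5d has 15164 bases of annotated exon and a longest coding transcript of 7974 bases. Per kilobase of longest coding transcript Eif2s3y was again the highest, at 27.4 CPM in the knockout and 27.7 CPM in wild type, and again the only Y copy above its partner. The lower part of the order of means changed with this length. In the knockout Kdm6a at 1.46 CPM per transcript kilobase came above Eif2s3x at 1.26, Uty at 1.25 and Usp9y at 1.23, with Kdm5d lowest at 0.597. The knockout range of Kdm6a overlapped those of Eif2s3x and Usp9y but not that of Uty. In wild type Eif2s3x at 2.30 and Kdm6a at 2.19 CPM per transcript kilobase came above Usp9y at 1.93, Uty at 1.87 and Kdm5d at 0.889. Apart from Kdm5d, these wild-type ranges all overlapped.

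The 5 pairs have diverged in sequence, which limits how far reads could be shared between partners. Identity over the aligned coding bases was 85.1% for Ddx3, 79.6% for Kdm5, 84.0% for Usp9, 86.3% for Eif2s3 and 85.4% for Uty and Kdm6a. At most 0.825% of the 31-base words of any member's exons occurred in its partner, and none of the 75-base words did. Eif2s3x shares more with another gene: 34.9% of its 31-base words occur in the X-linked gene Gm2223. Gm2223 itself had 1, 1, 2 and 1 counts in the knockout and 2, 2, 0 and 0 counts in wild type. With both rows summed, the log2 fold change of Eif2s3x was -0.86 (edgeR adjusted p = 0.000121). With so few Gm2223 counts the sum could hardly differ, and it recovers no reads that were dropped. How the authors' counting treated reads that map to several places is unknown here. If such reads were dropped, the level of Eif2s3x is understated and the ratio of Eif2s3y to Eif2s3x counts is overstated in both genotypes.

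The members varied together across libraries of 1 genotype to some extent. Wild-type library 2 was the highest of its group for 10 of the 10 genes, and wild-type library 1 the lowest for 8. Among knockout libraries, library 1 was the lowest for 8 genes and library 2 the highest for 6. The share of all tested genes with these extremes was not counted, so the pattern may not be particular to the members. Outside the pairs, Zfx and Hormad1 had the same wild-type extremes, while Inha was highest in wild-type library 1. Along the stretch of the Y short arm from Zfy1 to Usp9y, in the order of the GRCm38 annotation, the genes with enough counts to test were Zfy1, Uba1y, Kdm5d, Eif2s3y, Tspy-ps, Uty, Ddx3y and Usp9y. Eif2s3y, which did not pass, stood between Kdm5d, which fell, and the pseudogene Tspy-ps, which rose (4.40 ± 0.745 CPM in the knockout and 2.01 ± 0.152 CPM in wild type; log2 fold change 1.14, edgeR adjusted p = 3.69e-05).

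Other genes of the short arm of the Y moved in both directions. Of the 9 listed, 4 were tested. Zfy2, a zinc finger transcription factor of meiosis and spermatids, rose to 24.3 ± 2.90 CPM in the knockout, against 11.7 ± 0.776 CPM in wild type (log2 fold change 1.05, edgeR adjusted p = 3.13e-07). Its close copy Zfy1 fell (6.51 ± 1.49 CPM in the knockout and 9.49 ± 1.36 CPM in wild type; log2 fold change -0.54, edgeR adjusted p = 0.00861), and reads shared by these near-identical copies may have been split between them or dropped. Uba1y, a ubiquitin-activating enzyme, fell by 0.41 on the log2 scale (edgeR adjusted p = 0.00117). Sry, the sex-determining gene, had 11 counts in all knockout libraries and 5 in all wild-type libraries, Rbmy had 0 and 1, and neither was tested. Teyorf1, H2al2y and Prssly were not matched to a row and were not analysed here.

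Of the 4 X-linked partners of those genes, 3 fell and 1 rose. Zfx, a transcription factor, fell by 0.65 (edgeR adjusted p = 0.000121) and Sox3, the X relative of Sry, fell by 1.23 on the log2 scale (edgeR adjusted p = 6.59e-06). Uba1 rose to 263 ± 23.6 CPM in the knockout, against 195 ± 7.09 CPM in wild type (log2 fold change 0.43, edgeR adjusted p = 2.41e-05). Rbmx, an RNA-binding protein gene, lay at the threshold (log2 fold change -0.25, edgeR adjusted p = 0.04997), its groups overlapped, and the call was lost in 10 of 14 alternative settings. Uba1y and Uba1 thus fell and rose, and their log2 ratio differed by -0.84 (exact permutation test p = 0.0286, the smallest possible, with no adjustment over the 3 other pairs compared in this way). The log2 ratio of Zfy2 to Zfx differed by 1.71 in the opposite direction (exact permutation test p = 0.0286, again the smallest possible), and that of Zfy1 to Zfx by 0.09 (exact permutation test p = 0.4).

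Autosomal relatives were listed only for the Ddx3, Kdm5 and Kdm6a families. Of these 5 genes 1 was higher and 1 lower, with a median log2 fold change of -0.02. Among all tested genes 26.2% were higher and 27.4% lower. No autosomal relatives of Usp9 or Eif2s3 were listed. D1Pas1, a retrocopy of Ddx3x on chromosome 1 that is expressed in male germ cells, rose to 308 ± 9.99 CPM in the knockout, against 253 ± 3.80 CPM in wild type (log2 fold change 0.29, edgeR adjusted p = 0.000111), while Ddx3y and Ddx3x fell. Kdm5a, another lysine-4 demethylase, fell by 0.39 on the log2 scale (edgeR adjusted p = 0.00125). Kdm5b (log2 fold change -0.02), the lysine-27 demethylase Kdm6b (-0.05) and the germ cell helicase Ddx4 (0.06) did not pass.

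The protein partners and functional counterparts of the pair genes were called in both directions on the TMM scale, and the balance moved with the scaling. Calls in both directions are not particular to these lists, because 27.4% of all tested genes fell and 26.2% rose. In the eIF2 system 4 of 12 genes fell and 2 rose, with a median log2 fold change of -0.08. Those that fell included Eif2b3, a subunit of the factor that recharges eIF2 (-0.79, edgeR adjusted p = 1.65e-05), and the eIF2 kinases Eif2ak4 (-0.69, edgeR adjusted p = 2.67e-05) and Eif2ak3 (-0.78, edgeR adjusted p = 0.000593). Eif5, which stimulates GTP hydrolysis by eIF2, rose by 0.18 (edgeR adjusted p = 0.00762). Of the 9 subunits of the Kmt2c and Kmt2d methyltransferase complexes that hold Kdm6a, 8 were tested, 4 fell and 2 rose (median log2 fold change -0.07). Kmt2c fell by 0.45 and Wdr5 by 0.40, and Dpy30 rose by 0.31 and Paxip1 by 0.23 on the log2 scale. Polycomb repressive complex 2 writes the lysine-27 mark that Kdm6a removes, and of its 4 genes Ezh1 fell by 0.32, Suz12 fell by 0.33 and Ezh2 rose by 0.15, while Eed did not pass (-0.14). The rise of Ezh2 was lost in 7 of 14 alternative settings, 5 of which leave out 1 library. With scaling to library totals, 7 of the 12 eIF2 genes fell and none rose, and none rose in the Kmt2c and Kmt2d complexes or in Polycomb repressive complex 2. On that scale the rises of Eif5, Dpy30, Paxip1 and Ezh2 did not pass, and Kdm5b and Eed fell. Pagr1a had 0 counts and was not tested.

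**Figure D4:**
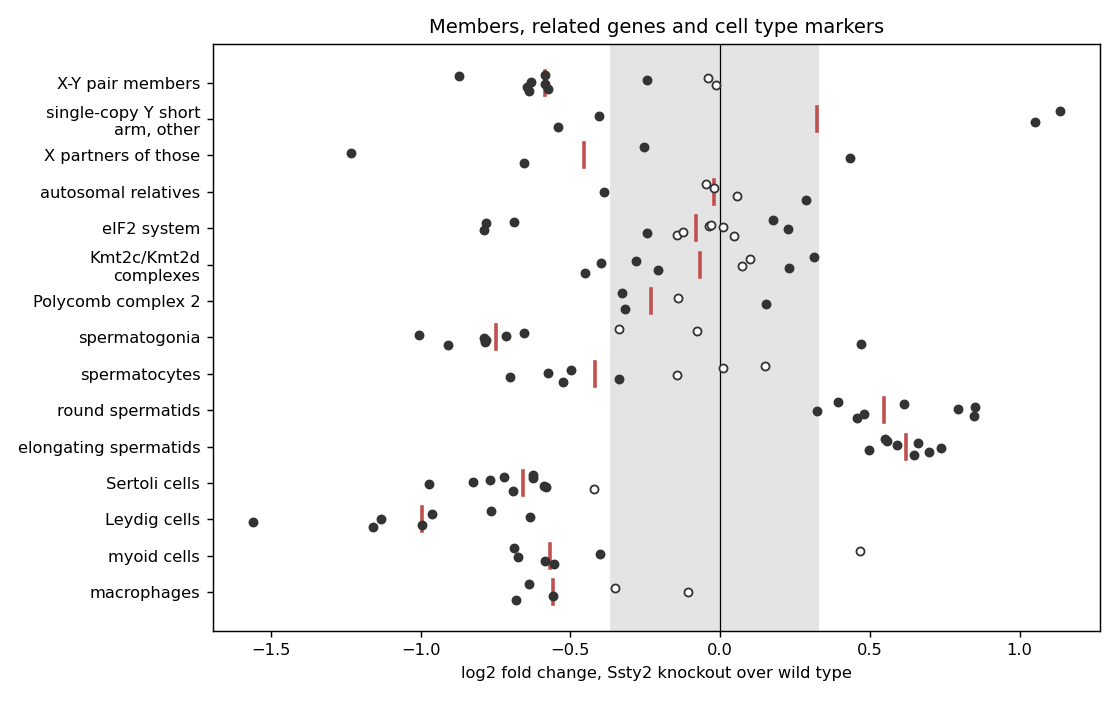
Log2 fold change, Ssty2 knockout over wild type, of the 10 X-Y pair genes (top), related genes and cell type markers. Filled points passed the test (adjusted p under 0.05), open points did not, red bars are medians and the grey band holds the middle 50% of all tested genes. The pair genes have a median of -0.59, spermatogonial markers -0.75, Sertoli markers -0.66, round spermatid markers 0.55 and elongating spermatid markers 0.62.

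Somatic cell markers fell beside the pair genes in the same libraries. Of 10 Sertoli cell markers 9 fell, with a summed level of 378 to 430 CPM in the knockout and 643 to 708 CPM in wild type; Inha, which encodes the inhibin alpha subunit, fell by 0.97 and Aard fell by 0.77 on the log2 scale. All 7 Leydig cell markers fell, with sums of 856 to 933 CPM in the knockout and 1575 to 1855 CPM in wild type, including the steroidogenic enzyme gene Cyp17a1 (-1.16) and the luteinizing hormone receptor gene Lhcgr (-1.56). Of 6 peritubular myoid markers 5 fell, among them the smooth muscle genes Myl9 (-0.67) and Myh11 (-0.59), with sums of 99.5 to 124 CPM in the knockout and 159 to 180 CPM in wild type. Of 5 macrophage markers 3 fell, among them Mrc1 (-0.56) and Csf1r (-0.68), with sums of 63.1 to 77.0 CPM in the knockout and 90.1 to 111 CPM in wild type. Among germ cell markers the spermatogonial genes Uchl1 (-0.78) and Dmrt1 (-0.78) and the spermatocyte genes Tex101 (-0.50) and Dmc1 (-0.70) fell. The spermatid genes Izumo1 (0.85), Gsg1 (0.61), Oaz3 (0.59) and Spem1 (0.66) rose. The elongating spermatid markers summed to 18320 to 21285 CPM in the knockout and 11764 to 14784 CPM in wild type. The part of these markers in the change of the pair genes was not tested.

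The genes whose profile over the 8 libraries came nearest to each member were found by the root mean square (RMS) difference of log2 CPM centred on each gene's mean. Candidates were the 13047 tested genes with a mean log2 CPM of at least 1, without model, clone, mitochondrial or pseudogene names. The mean covers both genotypes, so genes with a like fold change come near each other. Zfx was nearest to Ddx3y (RMS difference 0.0427), followed by Hif1a (0.0444). Mum1l1 (0.0274) and Nfyb (0.0279) were nearest to Kdm5d, Armcx5 (0.0593) and Tbc1d4 (0.0602) to Usp9y, and Hormad1 (0.0738) and Hmgb1 (0.0790) to Uty. The profile of Eif2s3y was nearest to those of Xrn2 (0.0347) and Hsp90aa1 (0.0366). Among the X copies, Wdr43 (0.0315) and Adgra3 (0.0381) were nearest to Ddx3x, B4galt7 (0.0373) and Tma16 (0.0517) to Kdm5c, and Zfp322a (0.0383) and Lats1 (0.0432) to Usp9x. Dram2 (0.0659) and Sat1 (0.0884) were nearest to Eif2s3x, and Casp8ap2 (0.0588) and Macf1 (0.0618) to Kdm6a. Eif2s3y and Eif2s3x differed by an RMS of 0.437.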

How the data were processed

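The values are whole, unnormalized counts of reads per gene, as deposited, in 1 table with a column for each of 8 libraries. Per the labels' protocols, TRIzol was used to isolate total RNA, which was digested with DNase and made into TruSeq libraries. The submitters' processing notes name STAR and featureCounts with build mm39, and also FastQC, Trimmomatic and DESeq2. Their versions and settings, the strand, the treatment of multi-mapping reads and the annotation release were not given in the sources used here; reads shared by gene copies or overlapping genes may therefore be split or dropped.

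From these counts, genes were filtered (filterByExpr, minimum count 10), scaled by TMM and tested with edgeR 4.0.16 in R 4.3.3 (quasi-likelihood, Benjamini-Hochberg over all tested genes, threshold 0.05). Y-to-X ratios were compared by exact permutation over libraries and, as an added alternative, with limma 3.58.1. DESeq2 1.42.0 was another alternative, and leaving out each library, other scalings, filters and a replicate block were tried. The edgeR and limma fits were tested on simulated counts with known changes, and the limma fit was chosen after the data were seen. Symbols (52125 of 56748 identifiers), chromosome, order and exon lengths came from a GRCm38 annotation, whose build differs from that of the counts; no coordinates were converted. Promoters are RefSeq's for GRCm38.p6.

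The members and lists were chosen with earlier results of these data known. Named genes were all members, every tested gene of the Y short arm, X partner and autosomal lists, up to 4 genes with the smallest p of each other pathway list, up to 2 of each cell type list, and the 2 nearest profiles of each member.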

Additional observations from a re-analysis of the deposited data

Results flagged for a closer look

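In 40 groups of 4 libraries, each holding the level of a member, the Y-to-X ratio of a pair or the summed level of a pair in 1 genotype, 3 single libraries stood far from the rest of their group, where chance picks out about 1 in 20 groups. Ddx3x was lowest in knockout library 1 at 37.7 CPM, with the next library at 42.3 CPM. Usp9x was highest in wild-type library 2 at 143 CPM, with the next library at 121 CPM. The log2 ratio of Ddx3y to Ddx3x was lowest in wild-type library 1 at -1.89, with the next library at -1.67.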

How the results depend on the processing

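Across 14 alternatives per member, Ddx3y, Ddx3x, Kdm5d, Usp9y, Eif2s3x, Uty and Kdm6a kept their call and direction. Scaling to library totals moved the median log2 fold change of all genes by -0.14 and gave 3848 higher and 8255 lower calls, against 5744 higher and 6008 lower with TMM. There Usp9x (-0.18, edgeR adjusted p = 0.039), the Usp9 sum (-0.24) and the Eif2s3 sum (-0.25) passed, and among related genes Ddx4 turned to -0.0855. Leaving out 1 library at a time gave 7 to 8 members called, with log2 fold changes of -0.29 to -0.17 for Kdm5c, -0.0591 to 0.0368 for Eif2s3y (above 0 without knockout library 1, or without wild-type library 2 or 4 at 0.0016 and 0.0032) and -0.08002 to 0.0218 for Usp9x (above 0 without wild-type library 2). Without knockout library 4 Kdm6b and Kdm5b were at 0.0044 and 0.0045, and over the left-out libraries Kdm5b ran from -0.0511 to 0.0045. In 7 of 14 alternatives Ezh2 did not pass, nor did Rbmx in 10. In the added limma fit the ratios of Kdm5 (-0.33), Usp9 (-0.61) and Eif2s3 (0.84) passed. The cause of these changes was not tested. The deviations of same-numbered libraries had low correlations (0.0020 to 0.0798). Among the 10 pair genes, however, library 1 was the lowest of its group for 8 genes in each genotype. Library 2 was the highest for 10 genes in wild type and for 6 in the knockout. These 10 genes varied together and are not separate evidence. Neither their extremes nor the correlations can decide whether the numbers pair the libraries. A replicate block gave 12118 called genes against 11752, and the same 8 members. With the block the ratio differences were unchanged, for example 0.84 for Eif2s3, whose exact sign-flip permutation test cannot go below p = 0.125. Depth limits Eif2s3x and Kdm5d most, with about 75 to 110 counts per knockout library for each; counting error is only part of the spread.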
